A study of Mus musculus with 6 samples.

Results

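The activator protein 1 (AP-1) genes examined here are Fos, Fosb, Fosl1 and Fosl2 of the Fos family, Jun, Junb and Jund of the Jun family, Atf3, and the small Maf genes Maff and Mafk. They were taken by gene symbol, and all 10 were found among the 24348 genes of the count table. RNA was sequenced from fibroblasts sorted after collagenase digestion of the whole synovium of adult wild-type C57BL/6 mice, with 3 libraries after intravenous injection of immune complexes (IC) and 3 after vehicle. According to the study's methods, ICs were ovalbumin bound by rabbit antibodies. What the vehicle contained, the time from injection to sorting for these cells, and whether a library came from 1 mouse are not given in the sources used here, so p-values measure the spread between libraries only.

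AP-1 is a dimer of basic leucine zipper (bZIP) proteins. Fos proteins pair with Jun proteins, whereas Jun proteins can also pair with each other and with Atf3, and the dimers bind DNA motifs known as the TPA response element (TRE) and the cyclic AMP response element (CRE). Most of these genes are immediate early genes, transcribed within minutes of growth factor, cytokine or stress signals carried by MAP kinases. In synovial fibroblasts AP-1 is best known for driving matrix metalloproteinase and cytokine genes, and the family is also known to be switched on by enzymatic digestion of tissue. All 6 libraries passed through digestion and sorting, and undigested tissue was not measured here, so the values are levels after isolation.

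Total counts ranged from 40114331 to 56714304 per library and overlapped between the groups. Fibroblast markers made up 47658 to 49405 CPM (counts scaled to the same total in each library) after IC and 48058 to 58234 after vehicle, whereas the 7 of 12 leukocyte markers analysed summed to 25.7 to 37.8 and 29.4 to 35.1. Pdgfra and Col1a1, which define fibroblasts, had at least 43198 and 607185 normalised counts (counts divided by a library's size factor) in every library. Gm42418, a gene model lying over ribosomal RNA, took 0.964% of counts in vehicle replicate 1 and 0.375% to 0.553% elsewhere. Values without this library are given where they change the call of an AP-1 gene.

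Several AP-1 genes were among the most abundant transcripts in both groups. Together the 10 genes held 2.13%, 2.16% and 2.17% of all counts in IC replicates 1, 2 and 3, and 1.93%, 2.00% and 1.98% in vehicle replicates 1, 2 and 3. The 95% Wilson interval of each share, which covers counting error only, was within 0.00431 percentage points. All 3 IC libraries thus lay above all 3 vehicle libraries. Fosb alone held 0.705% to 0.762% of counts after IC and 0.600% to 0.613% after vehicle, and was the gene with the 7th highest mean normalised count of all 24348. Fos, at 0.499% to 0.560% over all libraries, was 14th and Jun 22nd.

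**Figure D1:**
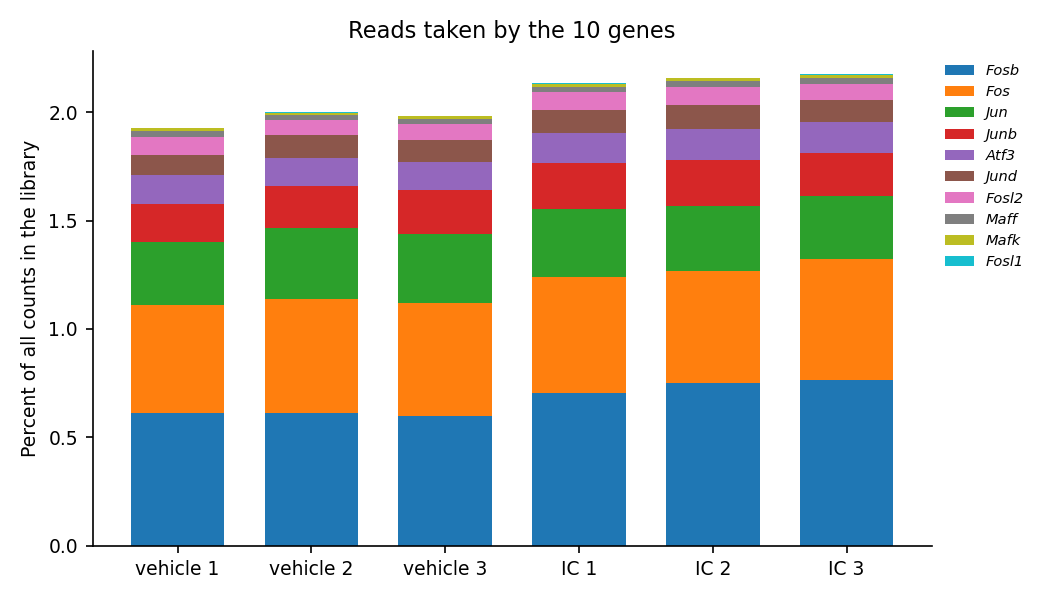
Percent of all counts (vertical axis) taken by each of the 10 genes in each of the 6 libraries, as stacked bars. The stacks reach 1.93% to 2.00% in the vehicle libraries and 2.13% to 2.17% in the IC libraries, and most of the added height is Fosb.

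Levels of different genes were compared as normalised counts per kb of merged exon, using GENCODE M21 lengths that may differ from the annotation the reads were counted on. In vehicle libraries the level of Fos per kb was 105549 ± 6060 (SD, n = 3), above that of every other AP-1 gene. Jun, with 47157 ± 4554, and Fosb, with 46932 ± 1299, followed, and their ranges overlapped. Junb had 40151 ± 3907, below every vehicle value of Fosb but overlapping that of Jun. Jund, with 29108 ± 2760, and Atf3, a stress-induced member of the ATF/CREB group, with 28857 ± 404, also overlapped. The remaining genes were much scarcer. Maff, with 4147 ± 250, and Fosl2, with 3772 ± 283, overlapped each other. Mafk had 1706 ± 50.8 and Fosl1 249.5 ± 52.8, so that the level of Fos per kb was 423 times that of Fosl1. Among the 23857 genes with a length, 6 of the 10 (Fos, Fosb, Jun, Junb, Atf3 and Jund) ranked within the top 25 per kb. Jund and Fosl1 share many exonic bases with genes on the other strand, so their levels per kb are less certain. The 7 transcripts of Fosb in GENCODE M21 merge into 2 exons with 6243 bases. This length may exceed that of the transcripts expressed, which would make the level of Fosb per kb too low. Its level per kb and its place beside Jun are therefore less certain too.

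The sequence upstream of these genes is shown because Fosb and Fos, close relatives in protein family, were called and not called by DESeq2, respectively, after IC. Whether the changes of Fosb and Fos differed was not tested. RefSeq promoter sequences (GRCm38.p6, the assembly that mm10 names) were found for 9 of the 10 genes, all but Fosl1, in 11 windows since Maff has 3 annotated starts. The 250 bases before each start were searched on both strands for the TRE (TGACTCA), the CRE (TGACGTCA), the TRE variant of the Jun promoter (TGACATCA), the antioxidant response element (TGACNNNGC), which binds small Maf dimers, and the CArG box bound by serum response factor. The CRE core (TGACG), which every CRE contains, was added after the sequences were seen. The 150 bases nearest the start are printed 5′ to 3′ on the strand of the gene, with every match in capitals. They are chr7:19310046-19310195 (minus strand) for Fosb, chr12:85473740-85473889 (plus) for Fos, chr4:95052223-95052372 (minus) for Jun, chr8:84978749-84978898 (minus) for Junb, chr1:191183334-191183483 (minus) for Atf3 and chr15:79347370-79347519 (plus) for the start of Maff that holds a CRE.
Fosb: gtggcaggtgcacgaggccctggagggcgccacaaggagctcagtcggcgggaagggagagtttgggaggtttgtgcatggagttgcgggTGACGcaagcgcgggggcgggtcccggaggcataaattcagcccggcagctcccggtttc
Fos: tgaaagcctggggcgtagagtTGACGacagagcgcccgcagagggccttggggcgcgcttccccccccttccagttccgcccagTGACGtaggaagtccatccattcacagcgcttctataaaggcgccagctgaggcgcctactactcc
Jun: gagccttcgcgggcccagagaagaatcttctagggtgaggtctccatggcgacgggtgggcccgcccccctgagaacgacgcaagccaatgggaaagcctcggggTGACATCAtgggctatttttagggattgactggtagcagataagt
Junb: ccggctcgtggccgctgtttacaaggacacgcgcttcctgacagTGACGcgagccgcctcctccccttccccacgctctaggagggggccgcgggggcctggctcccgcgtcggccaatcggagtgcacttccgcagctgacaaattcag
Atf3: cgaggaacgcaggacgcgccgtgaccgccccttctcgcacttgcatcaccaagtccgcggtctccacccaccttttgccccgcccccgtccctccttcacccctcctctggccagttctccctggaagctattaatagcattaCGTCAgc
Maff: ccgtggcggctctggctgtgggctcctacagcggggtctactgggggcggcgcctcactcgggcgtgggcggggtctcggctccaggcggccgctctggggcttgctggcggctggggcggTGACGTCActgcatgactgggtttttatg

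The CRE core was found in 7 of the 11 windows, belonging to 6 genes (Fosb, Fos, Junb, Atf3, Maff and Mafk), and in 17.8% of all 32851 promoter windows. Since this motif was chosen after the sequences were seen, nothing is read from the difference. In Fosb it began 60 bases before the start, and in Fos 66 and 129 bases before it. A full CRE was found only in Maff, 29 bases before the start, and in 1.55% of all windows. The TRE variant lay 45 bases before the start of Jun and before another start of Maff, and in 2.93% of all windows. The antioxidant response element was found in Maff and Mafk, and in 10.2% of all windows. Neither the TRE nor the CArG box, present in 4.46% and 1.47% of all windows, was found in these 250 bases of any of the 9 genes. Sequence farther upstream was not searched, so these genes may hold such sites there. The window of Jund ends at position 70697738 of chromosome 8, well before the start of Jund in GENCODE M21, 70698949. The window of Atf3 (chromosome 1, 191183334 to 191183583, minus strand) lies inside its GENCODE M21 locus, which starts at 191218039. That of Fosl2 (chromosome 5, 32136222 to 32136471, plus strand) also lies inside its locus, which starts at 32135801. Matches and distances hold for the RefSeq starts only. Fosb and Fos therefore both held a CRE core at a similar distance, and Fos held a second one farther away. These matches describe letters, not binding.

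The comparison of IC with vehicle asked whether fibroblasts changed their gene expression after systemic IC challenge. Fosb, which encodes a Fos family protein and its shorter splice form, was the only AP-1 gene called, 1 of 10 against 2.10% of the 19925 genes tested (DESeq2, adjusted p under 0.05). Normalised counts of Fosb (chromosome 7, 19302696 to 19310051, GRCm38, minus strand) were 338692, 356919 and 368882 in IC replicates 1, 2 and 3, and 285172, 301366 and 292450 in vehicle replicates 1, 2 and 3. Every IC library was above every vehicle library. The means were 354831 ± 15203 and 292996 ± 8111 (SD, n = 3 each), a 1.21-fold difference with a 95% interval of 1.11 to 1.33. On the log2 scale this was 0.28 ± 0.067 (SE), and DESeq2 gave an adjusted p of 0.00350. Gene-level counts do not separate the splice forms of Fosb, and no other annotated gene overlaps it.

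The rise of Fosb was called by DESeq2 whichever library was left out, with an adjusted p of 0.00275 to 0.0355. With edgeR's quasi-likelihood test, which called 0.186% of the genes tested, the same log2 fold change had an adjusted p of 0.152, and with limma-voom 0.0817, so neither called Fosb or any other AP-1 gene. At an unadjusted p under 0.05 each of the 3 tools, DESeq2, edgeR and limma-voom, had 3 of the 10 genes, namely Fosb, Fosl1 and Maff. With DESeq2, 1952 of the 19925 genes tested were under this cutoff. The share of all genes under it was not counted for edgeR and limma-voom. The 3 tools used the same 6 libraries, so their agreement is not independent evidence.

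**Figure D2:**
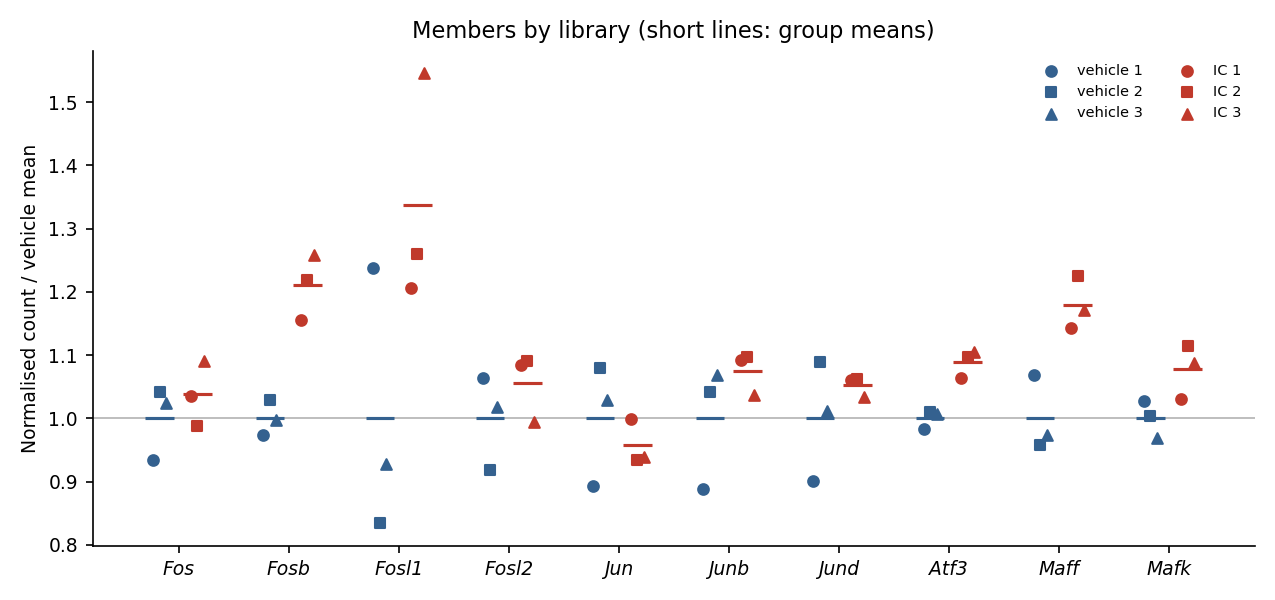
Normalised count of each gene in each library, divided by that gene's vehicle mean (vertical axis, linear). Blue symbols are vehicle and red symbols IC libraries, the symbol gives the replicate number, and short lines are group means. The red symbols of Fosb, Atf3, Maff and Mafk lie above all their blue symbols, and the other 6 genes overlap.

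Fos, the prototype of the family, had 257204, 245403 and 270933 normalised counts in IC replicates 1, 2 and 3, and 231983, 258545 and 254223 in vehicle replicates 1, 2 and 3. These values overlapped, with a log2 fold change of 0.05 and a 95% interval of −0.09 to 0.20 (adjusted p = 0.899 by DESeq2). The interval allows a change from 0.940-fold to 1.15-fold, below the 1.21-fold estimate of Fosb but overlapping its interval. Whether Fosb and Fos changed by different amounts was not tested. Fosl2, which encodes Fra-2, had 36294 to 39842 normalised counts after IC and 33506 to 38862 after vehicle, and a log2 fold change of 0.08 (95% interval −0.08 to 0.24). Neither gene was called, and leaving out any 1 library did not change this.

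Fosl1, which encodes Fra-1, was the scarcest and most variable of the 10. It had 611.6, 638.8 and 784.1 normalised counts in IC replicates 1, 2 and 3, and 628.1, 423.2 and 470.6 in vehicle replicates 1, 2 and 3. IC replicate 1 lay below vehicle replicate 1, so the groups overlapped. Fosl1 differed by 0.42 on the log2 scale, with a 95% interval of 0.04 to 0.79 (DESeq2 adjusted p = 0.334). Without vehicle replicate 1 it was 0.60 and called, with an adjusted p of 0.0346. Of the 2033 exonic bases of Fosl1 (chromosome 19, 5447547 to 5455946), 1163 are shared with exons of Ccdc85b on the other strand. The use of strand in counting is not stated, so the counts of Fosl1 are uncertain. Ccdc85b had 597.3 normalised counts after IC and 693.8 after vehicle on average, the opposite direction, and was not called (adjusted p = 0.684 by DESeq2).

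No Jun family gene was called. Jun had 150339, 140451 and 141238 normalised counts in IC replicates 1, 2 and 3, and 134191, 162258 and 154702 in vehicle replicates 1, 2 and 3. It was the only AP-1 gene with a mean below vehicle, with a log2 fold change of −0.06 and a 95% interval of −0.22 to 0.10 (adjusted p = 0.896 by DESeq2). Junb, often an antagonist of Jun, had 95848 to 101341 after IC and 82109 to 98776 after vehicle, a log2 fold change of 0.11 (95% interval −0.06 to 0.27). Jund, the member least dependent on stimulation, had 50166 to 51591 and 43704 to 52863, a log2 fold change of 0.07 (95% interval −0.08 to 0.23). The values of all 3 genes overlapped between groups, and the intervals reach 1.20-fold for Junb, 1.17-fold for Jund and 0.856-fold for Jun. Vehicle replicate 1 was the lowest library for all 3, and also for Fos, Fosb and Atf3. The SD among vehicle libraries was 9.66%, 9.73% and 9.48% of the mean for Jun, Junb and Jund, against 3.82%, 3.07% and 1.58% among IC libraries. The Jun genes share 232 (Jun with Junos), 173 (Junb with Prdx2) and 877 (Jund with Gm11175) exonic bases with genes on the opposite strand. The means of these partner genes were 656, 2536 and 414 normalised counts. With the use of strand in counting not stated, these means do not show how the shared bases affected the counts of the Jun genes. For Jund, 877 of 1668 exonic bases are shared, so its counts are uncertain, as for Fosl1.

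Atf3, Maff and Mafk each had all IC libraries above all vehicle libraries without passing the test. Together with Fosb, 4 of the 10 genes did not overlap with IC higher, against 8.09% of all genes tested, and 0 did not overlap with IC lower, against 7.67%. The 10 genes were measured in the same 6 libraries and are not independent. Atf3 had 66097, 68157 and 68713 normalised counts in IC replicates 1, 2 and 3, and 61159, 62747 and 62570 in vehicle replicates 1, 2 and 3. The libraries of each group lay close together, with an SD of 2.04% of the mean after IC and 1.40% after vehicle. Atf3 was 1.09-fold higher, or 0.12 on the log2 scale with a 95% interval of −0.00 to 0.25 (DESeq2 adjusted p = 0.450).

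Maff and Mafk encode small Maf proteins, which have a bZIP domain but no activation domain and pair with CNC factors such as Nfe2l2 and Bach1. Maff (chromosome 15, 79346621 to 79359076) had 12293, 13182 and 12602 normalised counts in IC replicates 1, 2 and 3, and 11501, 10300 and 10473 in vehicle replicates 1, 2 and 3. It had the largest fold change after Fosl1 and Fosb, 1.18-fold with a 95% interval of 1.06 to 1.31 (DESeq2 adjusted p = 0.0705). Without vehicle replicate 1, the highest vehicle library for Maff, the log2 fold change was 0.29 and the adjusted p 0.00303. In the other 5 fits that each left out 1 library Maff was not called, with an adjusted p of up to 0.334. Mafk had 6857 to 7413 after IC and 6444 to 6838 after vehicle, a log2 fold change of 0.11 (95% interval −0.04 to 0.26) that was not called in any of these fits. Mafk shares 169 exonic bases with Tmem184a on the opposite strand, which had a mean of 60.1 normalised counts. The effect of these shared bases on the counts of Mafk is not known, since the use of strand in counting is not stated.

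**Figure D3:**
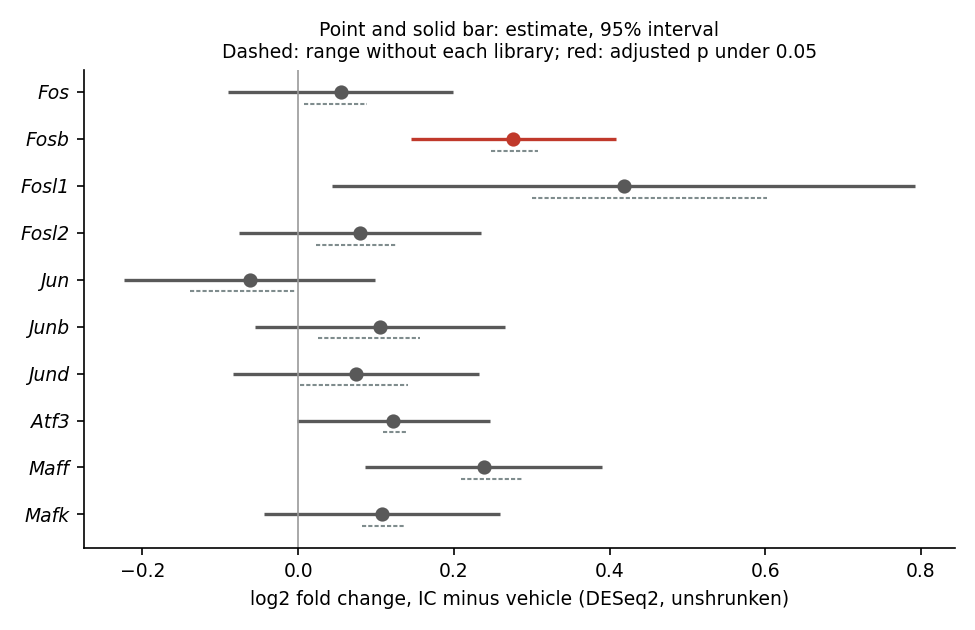
Log2 fold change of IC against vehicle for each gene (horizontal axis; DESeq2, 3 libraries per group) as points with 95% intervals as solid bars. Dashed bars give the range over the 6 fits that each left out 1 library, and red marks an adjusted p under 0.05. Fosb is the only red gene, at 0.28, the intervals of Fosb, Fosl1 and Maff lie above 0, and Jun lies at −0.06.

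Leaving out vehicle replicate 1 raised the AP-1 genes called by DESeq2 from 1 to 3, and all genes called from 419 to 677. Over the 10 genes the median log2 fold change was 0.11, with 9 above 0, beside −0.00 over all genes tested, with 9881 of 19925 above 0.

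The ratio of Fosb to another gene within a library does not depend on how libraries are scaled. The ratio of normalised counts of Fosb to Fos was 1.32, 1.45 and 1.36 in IC replicates 1, 2 and 3, and 1.23, 1.17 and 1.15 in vehicle replicates 1, 2 and 3. Every IC value was above every vehicle value, with means of 1.38 ± 0.070 and 1.18 ± 0.042 (SD, n = 3 each). The ratio of Fosb to Jun was 2.47 ± 0.19 after IC and 1.96 ± 0.15 after vehicle, and also did not overlap. In all, the ratio of Fosb to another AP-1 gene was higher without overlap for 5 of 9 genes (Fos, Jun, Jund, Atf3 and Mafk) and overlapped for Fosl1, Fosl2, Junb and Maff. The same held for the ratio of Fosb to 37.3% of the other 19924 genes tested, since Fosb itself did not overlap between groups, so the 5 of 9 says little about these genes. For Maff the mean ratios were close, at 27.97 ± 1.16 and 27.3 ± 2.29. These ratios were taken after the values were seen and were not tested.

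**Figure D4:**
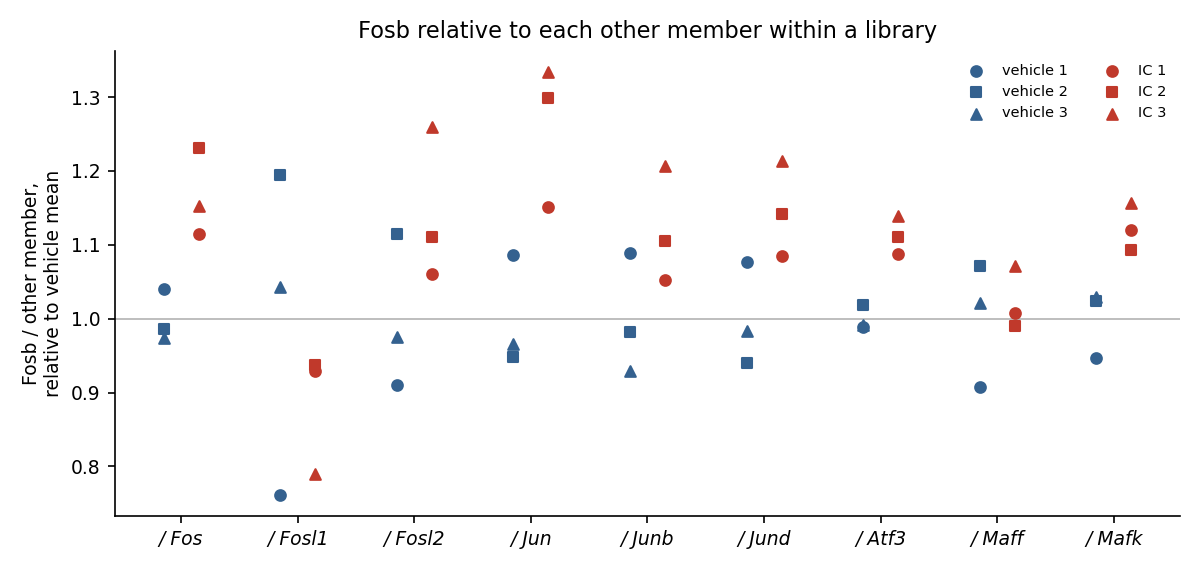
Ratio of Fosb to each other AP-1 gene within a library, divided by the mean ratio of the vehicle libraries (vertical axis, linear). Symbols are the 6 libraries, blue for vehicle and red for IC. Red and blue separate for Fos, Jun, Jund, Atf3 and Mafk, and overlap for Fosl1, Fosl2, Junb and Maff.

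Summed per kb, the Fos family exceeded the Jun family in every library. The ratio was 1.44 ± 0.088 after IC and 1.35 ± 0.070 after vehicle, and the libraries overlapped. Without Fosb it was 0.959 ± 0.061 and 0.944 ± 0.041. The share of Fosb in the summed level per kb of the 10 genes was 16.6% to 17.7% after IC and 14.9% to 15.9% after vehicle, while Fos stayed at 32.2% to 34.6% throughout. These shares and the family ratio with Fosb depend on the merged exon length of Fosb, so they are less certain.

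Other bZIP genes that can pair with these factors were mostly not called. Of 25 genes listed, 22 were tested, 1 was called higher and 0 lower, against 2.10% of all genes in either direction, with 11 on either side of 0. The called gene was Mafg, the remaining small Maf gene, with 5798, 7138 and 6072 normalised counts in IC replicates 1, 2 and 3 and 4620, 4646 and 4809 in vehicle replicates 1, 2 and 3. All IC values were higher, and it differed by 0.43 ± 0.095 (SE) on the log2 scale. The adjusted p was 0.000714 with DESeq2 and 0.0844 with edgeR. The call of Mafg by DESeq2 held without any 1 library. All 3 small Maf genes, Maff, Mafg and Mafk, therefore had every IC library above every vehicle library, against 8.09% of all genes tested. Of them 1 passed the test, Mafg, which is named here because it was called. For Mafk the lowest IC value, 6857, lay close to the highest vehicle value, 6838. Cebpb, a C/EBP factor of inflammatory genes, had a log2 fold change of 0.22 and was not called (DESeq2 adjusted p = 0.182). Without vehicle replicate 3 it was 0.30 and called, with a DESeq2 adjusted p of 0.0111.

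Among 32 genes of the MAP kinase and serum response factor route to AP-1, all tested, 0 were called higher and 1 lower by DESeq2, against the same 2.10%. Elk3, a ternary complex factor that can repress the Fos promoter, had 1744.7 to 1786 normalised counts after IC and 2050 to 2396 after vehicle, without overlap. DESeq2 gave −0.36 ± 0.106 (SE) on the log2 scale and an adjusted p of 0.0310. Elk3 lost this call whenever a library other than vehicle replicate 1 was left out, with an adjusted p of up to 0.176. Map3k5, a stress-activated kinase also known as ASK1, had −0.26 (adjusted p = 0.0983), and Mapkapk2, a kinase downstream of p38, 0.20 (0.256). The median of the list was −0.02.

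Other immediate early genes changed in both directions. Of 34 tested, 6 were called higher and 1 lower by DESeq2, against 2.10% of all genes in either direction, and the list median was 0.02. The list was chosen with earlier results of these data known, so its count is no independent evidence. Nr4a2, an orphan nuclear receptor gene, rose from 9551 ± 1759 to 15644 ± 1021 normalised counts (SD, n = 3 each), or by 0.71 on the log2 scale. Its adjusted p was 2.77e-07 with DESeq2 and 0.0537 with edgeR. Its relative Nr4a1 rose from 68489 ± 3364 to 82577 ± 1810, by 0.27 (DESeq2 adjusted p = 0.00637). Ier3, with 0.44 and 0.000342, Sik1, a salt-inducible kinase gene, with 0.33 and 0.00166, Myc, with 0.32 and 0.00591, and Csrnp1, with 0.24 and 0.0495, were also called higher by DESeq2. Klf6, a zinc finger factor gene, fell by 0.30 on the log2 scale (DESeq2 adjusted p = 0.000963). In fits that left out 1 library Nr4a2, Nr4a1, Ier3, Sik1 and Klf6 were called in all 6, Myc in 5 (not without vehicle replicate 3, with 0.0834) and Csrnp1 in 1 (that without vehicle replicate 1). edgeR called 0 of the 34 at its adjusted threshold and had 10 at an unadjusted p under 0.05, and limma-voom called 1. The share of all genes under that unadjusted cutoff was not counted for edgeR.

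Genes known from the literature as AP-1 targets were more often higher. Of 33 listed, 27 were tested, 9 were called higher and 1 lower by DESeq2, against 2.10% of all genes. The list median was 0.27, with 21 genes above 0. This list was chosen with earlier results of these data known and holds genes already seen to change, so its count is no independent evidence of a direction. Lox, a collagen cross-linking enzyme gene, had a log2 fold change of 0.91, Timp1, an inhibitor of metalloproteinases, 0.89, and Spp1, which encodes osteopontin, 0.80. Timp1 rose from 581.7 ± 133 to 1074 ± 139 normalised counts (SD, n = 3 each), with adjusted p-values of 0.000272 (DESeq2) and 0.0836 (edgeR). Ptgs2, which encodes cyclooxygenase 2, rose from 12065 ± 712 to 15456 ± 711, by 0.36 on the log2 scale (DESeq2 adjusted p = 0.000708). Plaur, the urokinase receptor gene, with 0.57 (adjusted p = 0.00932), Il6, with 0.55 (0.00183), Hmox1, the heme oxygenase 1 gene, with 0.66 (4.45e-05), Cxcl1, a neutrophil chemokine gene, with 0.45 (0.000664), and Tnc, which encodes tenascin C, with 0.46 (0.0351), were also higher. Fn1, the fibronectin gene, was lower, with −0.34 (0.0494). Mmp3, the classical AP-1 metalloproteinase gene of synovial fibroblasts, was 0.38 higher on the log2 scale without passing the test (DESeq2 adjusted p = 0.0610), and is named here after its value was seen. Without 1 library in turn, Lox, Hmox1, Timp1, Cxcl1 and Ptgs2 were called in all 6 fits. Spp1 was called in 5 (0.0666 without IC replicate 2), Il6 and Plaur in 3, Tnc in 2 and Fn1 in 1. The highest adjusted p in these fits was 0.0759 for Il6, 0.121 for Plaur, 0.411 for Tnc and 0.475 for Fn1. edgeR called Lox alone.

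**Figure D5:**
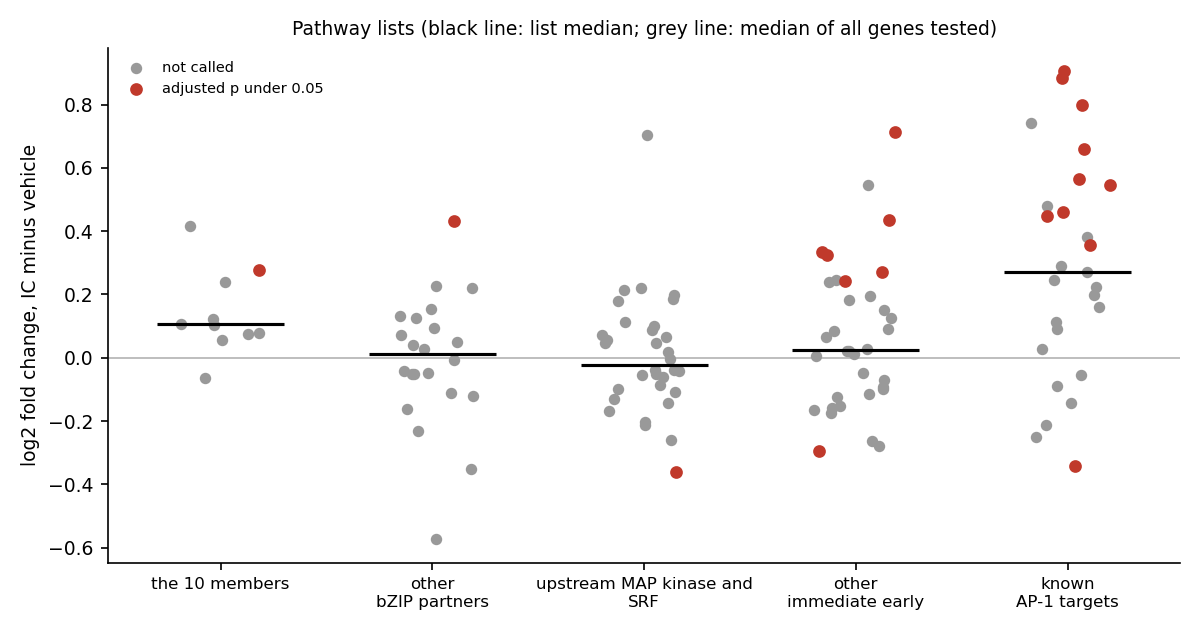
Log2 fold change of IC against vehicle (vertical axis) for each tested gene of the 10 AP-1 genes and of 4 related lists, with list medians as black lines and genes with a DESeq2 adjusted p under 0.05 in red. The red genes number 1, 1, 1, 7 and 10 from left to right, and the medians are 0.11, 0.01, −0.02, 0.02 and 0.27.

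Genes whose levels followed those of single AP-1 genes most closely were sought by the root mean square difference of log2(normalised count + 1), centred on each gene's mean, over the 6 libraries among 13434 other genes with a mean of at least 100. Nearest to Fos were Tollip (0.0136), Arhgap1 (0.0198) and Slc26a2 (0.0213), and nearest to Junb were Pcdhga10 (0.0271), Lemd2 (0.0274) and Ezh1 (0.0297). Nearest to Atf3 were Zfand6 (0.0157), Adam9 (0.0161) and Mon2 (0.0164), and nearest to Maff were Pdlim7 (0.0267), Ndel1 (0.0302) and Akap17b (0.0311). The other 6 AP-1 genes were not searched. Since these 4 genes varied by only 0.0645 to 0.133 about their own means, with 6 libraries and many genes searched, the list is a description.

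Some marker genes of other cells were called by DESeq2, against 2.10% of all genes tested, whereas edgeR called 1, in the Schwann cell list. Of the endothelial markers 8 of 8 had a log2 fold change below 0, 3 of them called, and their sum was 194 to 257 CPM after IC and 265 to 305 after vehicle. Of the skeletal muscle markers 10 of 10 were below 0, 3 of them called, with sums of 20.8 to 39.9 and 37.1 to 83.8 CPM. Of the mural cell markers 5 of 6 were below 0, 1 of them called, with sums of 397 to 496 and 500.2 to 544 CPM. The Schwann cell list had 1 of 6 called lower and sums of 49.3 to 124 and 102 to 149 CPM, and the leukocyte list 0 of 5 tested called, with S100a8 at 0 in all vehicle libraries. The AP-1 genes summed to 21328 to 21744 CPM after IC and 19271 to 19989 after vehicle. The part of these cells in the AP-1 values was not tested. Within the fibroblast markers, Prg4, a gene of the synovial lining, was called higher with a log2 fold change of 0.94, and Lum and Col3a1, matrix genes of most fibroblasts, were called lower with −0.36 and −0.38. In sorted cells sequenced in bulk, a change in the proportion of cells and a change of RNA per cell cannot be told apart.

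Heat shock genes, which respond to handling as well as to stress, had 9 of 10 log2 fold changes below 0 with 0 called. An unadjusted p under 0.05 by DESeq2 was found for 2, against 1952 of the 19925 genes tested. Their sum was 3178 to 3250 CPM after IC and 3294 to 3494 after vehicle. Whether handling affected the AP-1 values was not tested.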

How the data were processed

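Total RNA was sequenced from 6 libraries of sorted synovial fibroblasts, 3 after IC and 3 after vehicle, grouped by their labels. The files deposited by the authors hold unnormalised read counts for each gene. Per the labels and the study's methods, the authors trimmed reads with Trim Galore, aligned them to mm10 with HISAT2 and counted them with featureCounts. Tool versions, gene annotation and strand setting are not given in the sources used here. The labels and the methods name different stranded library kits. The methods also mention removal of batch effects with sva without details, and the labels give no batch.

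A gene was tested if 3 or more libraries had 10 or more counts (19925 genes). Left out were 4423 genes with 0.0429% of all counts. IC was compared with vehicle by the Wald test of DESeq2 (version 1.42.0), the tool the methods name, with default settings, treatment as the only term and Benjamini-Hochberg adjustment over all genes tested. Log2 fold changes are unshrunken, with 95% Wald intervals. DESeq2 gave 3870 genes no adjusted p, none of them an AP-1 gene. Depth was 40114331 counts or more per library. Alternatives were edgeR's quasi-likelihood test (version 4.0.16), limma-voom (limma 3.58.1), scaling by TMM or by total counts, omission of the count filter or of independent filtering, a term for the replicate number, a term for 1 surrogate variable (sva, version 3.50.0) and omission of each library in turn. The tests were also run on simulated counts with 200 changed genes, and the outcome is not reported here. Exon lengths and coordinates came from GENCODE M21 (GRCm38), with a length for 98.0% of genes, and promoter sequences from RefSeq (GRCm38.p6). Protein sequences were not used here.

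The genes and lists were chosen with earlier results of these data known. The named genes were the 10 AP-1 genes and, from each of the 4 pathway lists, every called gene, or the 3 with the smallest p where fewer than 3 were called, and the 3 genes nearest in profile to each of Fos, Junb, Atf3 and Maff. One gene that this rule names is not reported here. Lists of fibroblast, leukocyte, endothelial, mural, skeletal muscle and Schwann cell markers and of heat shock genes described the libraries.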

Additional observations from a re-analysis of the deposited data

How the results depend on the processing

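Over 15 alternatives, of which edgeR with the replicate block was chosen after seeing the data, no AP-1 gene changed direction, and 145 of 150 values kept their side of the threshold. Fosb lost its call with edgeR (log2 fold change 0.28, adjusted p = 0.152), limma-voom (0.28, 0.0817) and edgeR with the replicate block (0.28, 0.332). With DESeq2 and the replicate block Fosb remained called (adjusted p = 0.0216). Without 1 library, the log2 fold change ran from 0.30 to 0.60 for Fosl1 and from 0.21 to 0.29 for Maff, both called only without vehicle replicate 1. The number of AP-1 genes called was 0 with edgeR, limma-voom and edgeR with the block, and 1 to 3 without 1 library.

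The count over all genes was 37 with edgeR, 62 with limma-voom, 22 with edgeR and the block, and 281 to 677 without 1 library, beside 320 with DESeq2 and the block. Other bZIP genes called numbered 0 with edgeR, limma-voom and edgeR with the block, 2 with TMM and with total-count scaling, and 1 to 3 without 1 library. Upstream genes called numbered 0 with edgeR, limma-voom, either fit with the block and 1 surrogate variable, and 0 to 1 without 1 library. Immediate early genes called numbered 0 with edgeR with or without the block, 1 with limma-voom and 6 to 8 without 1 library. AP-1 targets called numbered 1 with edgeR with or without the block, 2 with limma-voom and 6 to 11 without 1 library, the 6 being without vehicle replicate 3. The cause of these changes was not tested.

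Across 13435 genes, IC and vehicle libraries with the same replicate number had correlations of −0.0918, −0.164 and 0.0250 between their deviations from the group means. Pairs with different numbers had −0.123 to 0.243, so a shared number did not mark more similar libraries. Deviations within a group of 3 libraries sum to 0, which constrains these correlations, so they cannot show that pairing was absent. The fits with the replicate block, among them DESeq2 with 320 genes called, are given for completeness.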
